A study of Mus musculus with 2 samples.

Results

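Interleukin-1 signalling was followed through 9 genes in single cells from 2 livers. Il1a and Il1b encode interleukin-1α and interleukin-1β, Il18 a related cytokine, and Tnf tumour necrosis factor. Il1rn encodes the receptor antagonist and Il1r2 the decoy receptor, both of which blunt interleukin-1 signals. Nlrp3 and Casp1 encode a sensor and the protease of the inflammasome, and Nfkbia encodes IκBα, an inhibitor of the transcription factor NF-κB. The genes were taken by symbol, and all 9 were found among the 32285 genes listed in both libraries. Interleukin-1β and interleukin-18 are made as inactive precursors that caspase-1 cuts, so RNA levels say how much message is present and not how much active cytokine is released. NF-κB switches on Il1b, Tnf and also Nfkbia, which forms a feedback loop. In the liver, resident macrophages (Kupffer cells) and arriving monocytes and neutrophils are the usual sources.

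Both livers came from tumour-bearing mice with floxed Glul alleles (Glul f/f), studied 7 weeks after virus was given, and the series title names β-catenin-mutant hepatocellular carcinoma. AAV8-GFP was given to the control mouse. The other mouse (GS-KO) was given AAV8-Cre, which removes Glul, the gene of glutamine synthetase. AAV8 is a vector that mainly reaches hepatocytes. Each library came from 1 mouse, was enriched with beads for F4/80, a macrophage surface protein, and was depleted of dead cells, so the shares of cell types are not those of the liver. With 1 mouse per group no test between genotypes is possible, and intervals, given in brackets, are 95% intervals for counting error alone.

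Glul itself stood at 3185 UMIs per 1000000 UMIs (CPM) in the 391 hepatocyte-like cells of the control library. In the 29 hepatocyte-like cells of the GS-KO library it stood at 99.6 CPM (70.5 to 137). That value rests on 38 UMIs, 23.7% of them in 1 cell. A UMI is a molecular barcode that marks 1 captured RNA molecule. The control library kept 3251 cells with a median of 7320 UMIs and the GS-KO library 655 cells with a median of 4104. The labels state a minimum of 7500 cells, while the matrices hold 5074 and 1366 barcodes. Barcodes over 20% mitochondrial UMIs, which were left out, made up 35.5% of the control barcodes and 50.8% of the GS-KO barcodes. Cells were clustered without the 9 genes and named from markers, so a name such as neutrophil-like rests on other genes. No kept barcode was shared between the libraries. All 14 neutrophil markers had UMIs in the neutrophil-like cells of each library, as did all 15 monocyte markers in the monocyte-like cells. The clusters were named from these markers, so their presence is no separate check. All 15 macrophage markers also had UMIs in control cells of both classes. Macrophage markers summed to 10398 and 5871 CPM in monocyte-like cells of the control and GS-KO library, and monocyte markers to 8008 and 8833 CPM. In neutrophil-like cells macrophage markers summed to 3086 and 557 CPM, and neutrophil markers to 118202 and 176812 CPM.

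The upstream sequences of Il1b, the member with the highest level in neutrophil-like cells, and of Nfkbia, the NF-κB feedback gene, are shown to compare what lies before the start of each. They are the 250 bases before the RefSeq start on GRCm38.p6, 5′ to 3′, at chr2:129371140-129371389 (minus strand) and chr12:55492648-55492897 (minus strand). Capitals mark a match to an NF-κB binding motif (κB site).
Il1b: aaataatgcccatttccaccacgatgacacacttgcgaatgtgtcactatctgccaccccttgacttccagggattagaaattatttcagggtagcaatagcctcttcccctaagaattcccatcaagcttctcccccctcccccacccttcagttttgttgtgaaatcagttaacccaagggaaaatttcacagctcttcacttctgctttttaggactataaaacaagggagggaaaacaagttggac
Nfkbia: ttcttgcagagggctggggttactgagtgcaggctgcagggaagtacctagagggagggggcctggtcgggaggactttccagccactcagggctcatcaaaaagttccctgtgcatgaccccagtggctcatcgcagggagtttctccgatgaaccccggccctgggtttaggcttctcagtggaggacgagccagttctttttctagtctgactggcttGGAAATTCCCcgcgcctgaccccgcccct
All 9 genes had an entry, with 12 starts in all. The motif GGGANTTCC, searched on both strands, matched 0 of the 9 genes and 1.43% of all 32851 upstream windows of the same length. Its longer form, with 1 more T, matched 1 of the 9, Nfkbia, at GGAAATTCCC from -29 to -20 relative to the start, and 0.356% of all windows. The degenerate κB consensus, which overlaps the longer form, matched Nfkbia at that place and 1 start of Nlrp3, against 3.90% of all windows. A match is a description of letters, and the windows of the other 7 genes hold none of these letters within this span.

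Neutrophil-like cells carried by far the most Il1b. Il1b is on chromosome 2 (129364570 to 129371139, minus strand). In neutrophil-like cells it reached 7439 CPM (7109 to 7781; 99 cells) in the control library and 12932 CPM (12535 to 13339; 103 cells) in the GS-KO library. Macrophage-like cells held 85.3 CPM (81.4 to 89.4; 1363 cells) and 125.1 CPM (105.9 to 146.8; 98 cells), and monocyte-like cells 113.1 CPM (93.1 to 136.2; 109 cells) and 197.1 CPM (155.8 to 246.0; 51 cells). The neutrophil-like level was therefore 87.2-fold (81.7 to 93.1) the macrophage-like level in the control library and 103-fold (87.8 to 122) in the GS-KO library. At least 1 Il1b UMI was seen in 98 of 99 and in 99 of 103 neutrophil-like cells, although these cells are shallow (medians of 2371 and 2602 UMIs). After every cell was thinned to 1000 UMIs, Il1b was still found in 95.9% and 95.2% of neutrophil-like cells, but in 6.36% and 8.24% of macrophage-like cells. As a background, 4.60% of control hepatocyte-like cells had an Il1b UMI without thinning, at a median depth of 29659 UMIs.

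**Figure D1:**
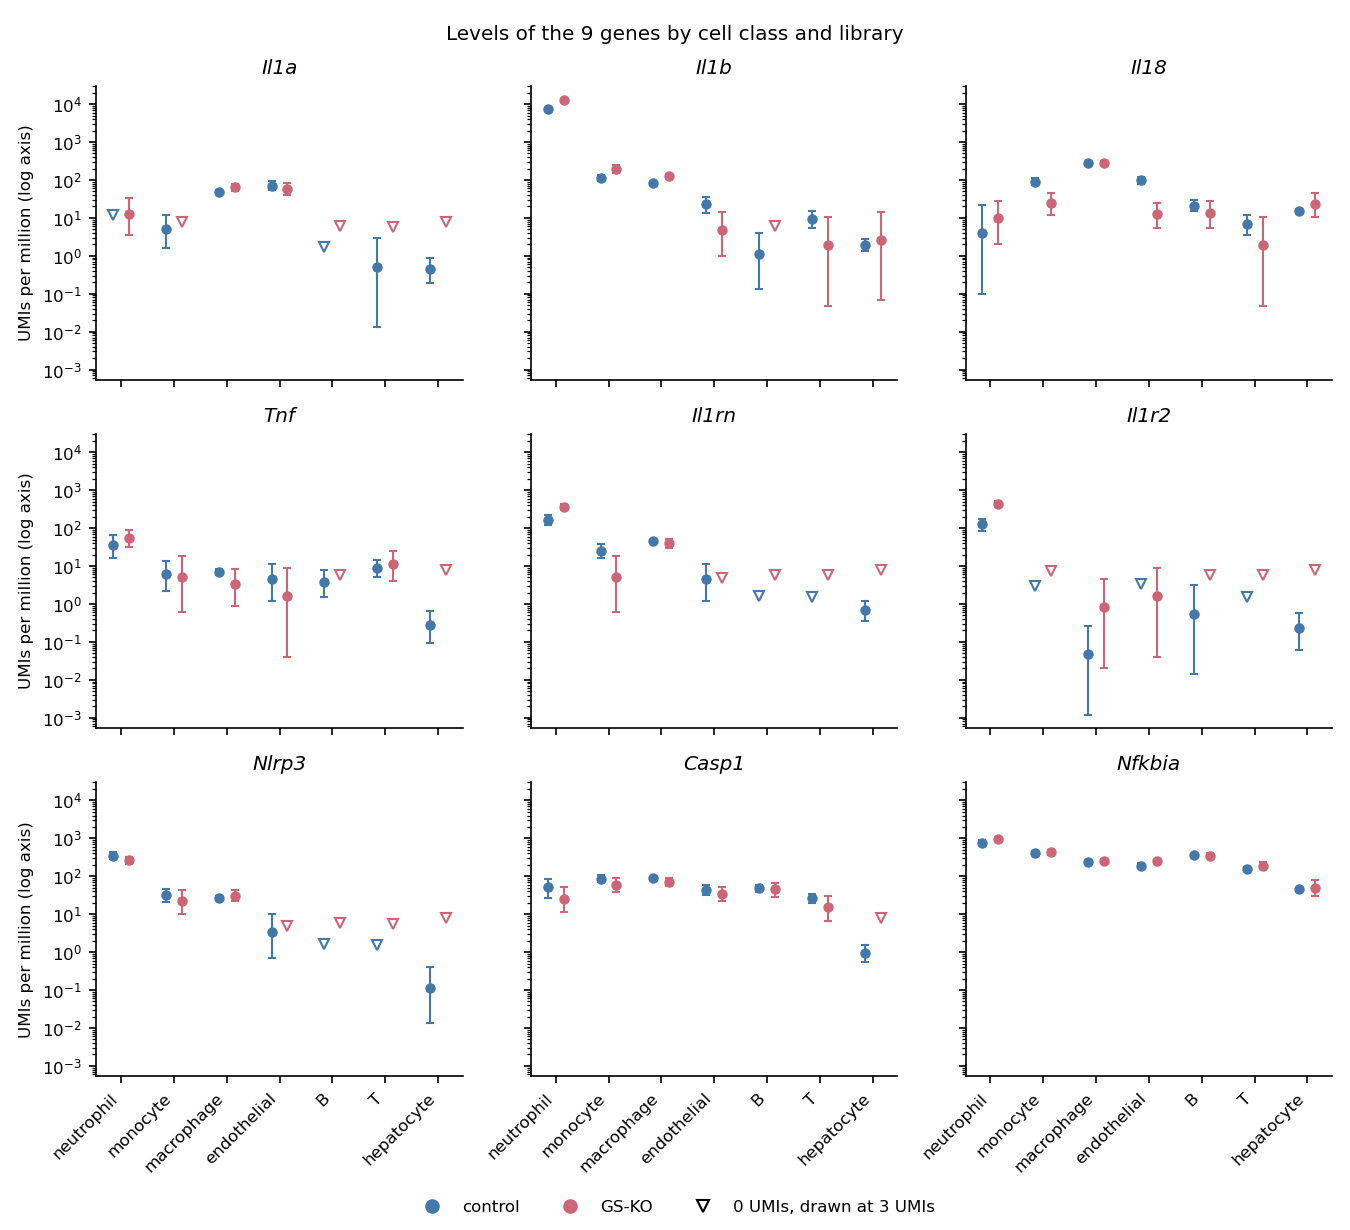
Level of each gene (CPM, log axis) in 7 cell classes; blue is the control library, red the GS-KO library, bars are 95% Poisson intervals and open triangles mark 0 UMIs, drawn at the level of 3 UMIs. Il1b, Il1r2 and Nlrp3 peak in neutrophil-like cells and Il18 in macrophage-like cells, in both libraries.

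A small share of the cells held much of the Il1b message. Neutrophil-like cells were 3.05% of the control cells and held 48.2% of all Il1b UMIs there, with macrophage-like cells holding 45.2%. They were 15.7% of the GS-KO cells and held 94.4% of Il1b UMIs. Because the bead enrichment and the mitochondrial limit act on these shares, they describe the 2 libraries and not the livers.

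Other classes held little Il1b. The level was 1.98 CPM in hepatocyte-like cells of the control library, a rough measure of free RNA. These cells are deep (median of 29659 UMIs), so the level may not hold for free RNA in shallower classes. Among 470 B-like cells of the control library 2 UMIs were seen. In T-like cells of the control library 1 cell held 94.4% of the 18 Il1b UMIs. Set beside S100a8 and S100a9, abundant neutrophil messages, there were 7.36 and 9.16 Il1b UMIs per 100 UMIs of the pair in neutrophil-like cells, and 336 and 600 in macrophage-like cells.

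**Figure D2:**
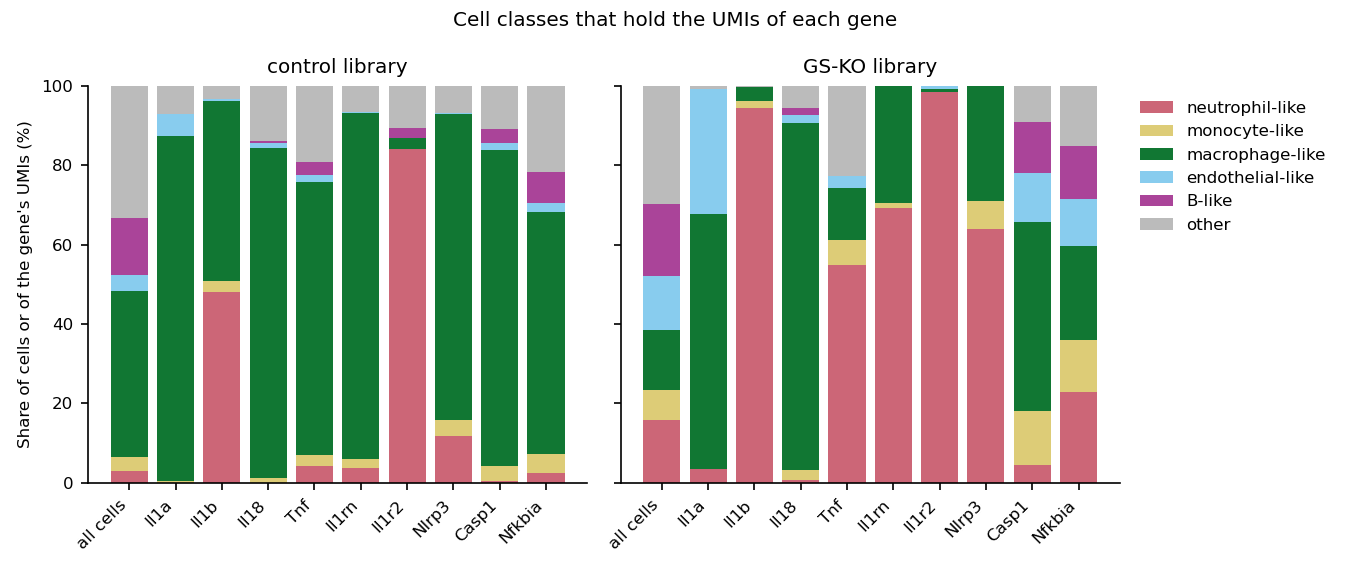
Share of cells (first bar of each panel) and of each gene's UMIs (other bars) held by the cell classes, in percent, for the control and the GS-KO library. Neutrophil-like cells, 3.05% and 15.7% of cells, hold 48.2% and 94.4% of Il1b UMIs, while macrophage-like cells hold 83.2% and 87.3% of Il18 UMIs.

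The other cytokines were spread differently. Il18 (chromosome 9, 50554827 to 50581840, plus strand) was a macrophage message, at 288.4 CPM (281.2 to 295.8) and 286.1 CPM (256.6 to 318.1) in macrophage-like cells. Neutrophil-like cells held 1 and 3 Il18 UMIs. Macrophage-like cells accounted for 83.2% and 87.3% of all Il18 UMIs. The 2 libraries did not differ beyond counting error in this class, with a ratio of GS-KO over control of 0.992 (0.887 to 1.106).

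Il1a (chromosome 2, 129299610 to 129309972, minus strand) was shared by macrophage-like and endothelial-like cells. Its level was 47.7 CPM (44.8 to 50.7) and 63.4 CPM (49.9 to 79.3) in macrophage-like cells. Endothelial-like cells held 71.2 CPM (54.7 to 91.1; 129 cells) and 58.6 CPM (41.3 to 80.8; 89 cells), 35.1% of the latter UMIs being in 1 cell. Neutrophil-like cells held 0 and 4 Il1a UMIs, the 4 in 1 cell, and B-like cells held 0 in both libraries, where 3 UMIs would be 1.66 and 5.93 CPM. The 2 interleukin-1 genes thus differed in their cells, Il1b being highest in neutrophil-like cells and Il1a nearly absent there.

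Tnf (chromosome 17, 35199381 to 35202007, minus strand) was scarce everywhere. Neutrophil-like cells held 35.1 CPM (16.0 to 66.6; 9 UMIs) and 54.7 CPM (31.9 to 87.6; 17 UMIs), macrophage-like cells 7.00 CPM (147 UMIs) and 3.34 CPM (4 UMIs, 3 of them in 1 cell). T-like cells, a usual source of Tnf once stimulated, held 8.85 CPM (17 UMIs) and 11.3 CPM (6 UMIs). In 9.09% and 9.71% of neutrophil-like cells a Tnf UMI was found.

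The 2 genes that blunt interleukin-1 differed in the cells that carried them. Il1r2 (chromosome 1, 40074079 to 40125231, plus strand) was close to a neutrophil message alone, with 32 of 38 UMIs of the control library and 132 of 134 of the GS-KO library in neutrophil-like cells. Monocyte-like cells held 0 Il1r2 UMIs in both libraries, where 3 UMIs would be 3.06 and 7.58 CPM, and macrophage-like cells held 1 in each. Il1rn (chromosome 2, 24336853 to 24351494, plus strand) was found in both neutrophil-like and macrophage-like cells. Its level in neutrophil-like cells was 3.49-fold (2.50 to 4.75) the macrophage-like level in the control library and 9.09-fold (6.43 to 13.02) in the GS-KO library. Most Il1rn UMIs of the control library were nevertheless in macrophage-like cells (87.2%), which are many and deep, and most of the GS-KO library in neutrophil-like cells (69.3%).

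The inflammasome sensor and protease did not peak in the same class. Nlrp3 (chromosome 11, 59541568 to 59566956, plus strand) stood at 346.8 CPM (278.5 to 426.8) and 264.0 CPM (210.0 to 327.7) in neutrophil-like cells, 12.6-fold (9.95 to 15.8) and 8.55-fold (5.73 to 12.97) the macrophage-like levels of 27.6 and 30.9 CPM. Casp1 (chromosome 9, 5298517 to 5307265, plus strand) was highest in macrophage-like cells, at 90.4 CPM (86.4 to 94.6) and 70.9 CPM (56.6 to 87.7), and in monocyte-like cells, at 86.6 CPM (69.2 to 107.1) and 60.7 CPM (38.9 to 90.2). The intervals of these 2 classes overlap in each library. Neutrophil-like cells held 50.7 CPM (13 UMIs) and 25.8 CPM (8 UMIs) of Casp1. Without thinning, Il1b and Nlrp3 were seen together in 48 of 99 and 49 of 103 neutrophil-like cells, nearly all of which held Il1b. Nlrp3 and Casp1 were seen together in 5 and 3 of these cells.

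Nfkbia (chromosome 12, 55489410 to 55492647, minus strand) was the most widely detected member. The order of its levels in the control library was neutrophil-like 763.8 CPM (660.6 to 878.5), monocyte-like 411.7 CPM (372.5 to 453.8), B-like 358.1 CPM (331.1 to 386.8) and macrophage-like 237.0 CPM (230.5 to 243.7). Endothelial-like cells followed at 192.2 CPM (164.4 to 223.3), T-like at 158.2 CPM (140.9 to 177.0), NK/ILC-like at 116.5 CPM (85.0 to 155.9) and hepatocyte-like at 46.2 CPM (43.0 to 49.4). Monocyte-like and B-like intervals overlap, as do those of endothelial-like and T-like and of T-like and NK/ILC-like cells. Among GS-KO cells the neutrophil-like were again highest, at 962.6 CPM (856.6 to 1078), and monocyte-like cells next, at 437.2 CPM (374.5 to 507.5). NK/ILC-like cells stood at 351.3 CPM there, with 35.9% of the UMIs in 1 of 18 cells, and endothelial-like cells at 245.4 CPM, with 49.0% in 1 cell.

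A gene was counted as higher or lower between 2 groups of cells when its CPM differed at least 1.5-fold and both together held at least 20 UMIs. By this count 6 of the 9 genes were higher and 3 lower in neutrophil-like than in macrophage-like cells, in each library. Over all genes with enough UMIs, 22.5% were higher and 35.0% lower in the control library, and 24.4% and 55.6% in the GS-KO library. The 6 were Il1b, Tnf, Il1rn, Il1r2, Nlrp3 and Nfkbia. The 3 were Il1a, Il18 and Casp1. Monocyte-like cells stood nearer to macrophage-like cells, with 1 of 8 genes higher (Nfkbia) and 3 lower (Il1a, Il18, Il1rn) in the control library, against 23.6% and 22.0% of all genes. In the GS-KO library 2 of 7 were higher (Nfkbia, Il1b) and the same 3 lower, against 29.9% and 26.9%. Neutrophil-like cells also stood above monocyte-like cells, with 5 of 7 members higher (Il1b, Il1rn, Il1r2, Nlrp3, Nfkbia) and 2 lower (Il18, Casp1) in the control library, against 20.2% and 53.2% of all genes. Among GS-KO cells the same 5 of 6 were higher and Casp1 was lower, against 24.2% and 46.8%.

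Between the libraries, neutrophil-like cells of the GS-KO mouse held more Il1b, Il1rn and Il1r2. Of the 7 genes with at least 20 UMIs there, 4 were higher in the GS-KO library (Il1b, Il1rn, Il1r2, Tnf) and 1 was lower (Casp1), against 13.3% and 20.9% of the 2916 genes measured. The median log2 ratio of the 7 was 0.62, against -0.09 for all genes measured. Il1r2 was 124.7 CPM (85.3 to 176.0) in the control and 425.0 CPM (355.6 to 503.9) in the GS-KO library, a ratio of 3.41 (2.30 to 5.18). Il1rn was 163.7 CPM (118.0 to 221.2) and 363.8 CPM (299.8 to 437.4), a ratio of 2.22 (1.55 to 3.25). Single cells weigh on this ratio. The richest GS-KO cells stood at 79.6, 40.7 and 30.7 Il1rn UMIs per 10000 UMIs of the cell, the richest control cell at 13.1. The Il1b ratio was 1.74 (1.65 to 1.84). The intervals of the 2 libraries do not overlap for any of these 3 genes, but they take no account of the weight of single rich cells. Per 10000 UMIs of the cell, Il1rn had a median of 0 in both libraries. Its upper quartiles were 2.94 in control and 4.52 in GS-KO cells.

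The Tnf ratio of 1.56 (0.658 to 3.97) and the Casp1 ratio of 0.508 (0.183 to 1.32) rest on 26 and 21 UMIs, and their intervals include 1. Without the richest cell of each library the Tnf ratio was 1.14. Nlrp3 stood at a ratio of 0.761 (0.557 to 1.04). The Nfkbia ratio was 1.26 (1.05 to 1.52), but 33.7% of the control UMIs were in 1 cell, without which, and without the richest GS-KO cell, the ratio was 1.57. Other rich GS-KO cells remain in that value. The richest GS-KO cells stood at 153.7, 116.5 and 94.1 Nfkbia UMIs per 10000, the richest control cells at 69.6 and 51.3. The medians were nearly equal, at 3.57 in control and 3.61 in GS-KO cells.

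Cell by cell, Il1b per 10000 UMIs had a median of 68.7 (lowest 0, highest 224.8) in control neutrophil-like cells and of 141.8 (lowest 0, highest 428.2) in GS-KO ones. The lower and upper quartiles were 37.3 and 112.8 in the control library and 61.7 and 203.8 in the GS-KO library, so the 2 sets of cells overlap widely. A UMI of Il1r2 was found in 21.2% of control and 52.4% of GS-KO neutrophil-like cells, and in 12.4% and 27.2% after thinning. A UMI of Il1rn was found in 30.3% and 43.7%, and in 16.5% and 28.2% after thinning.

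**Figure D3:**
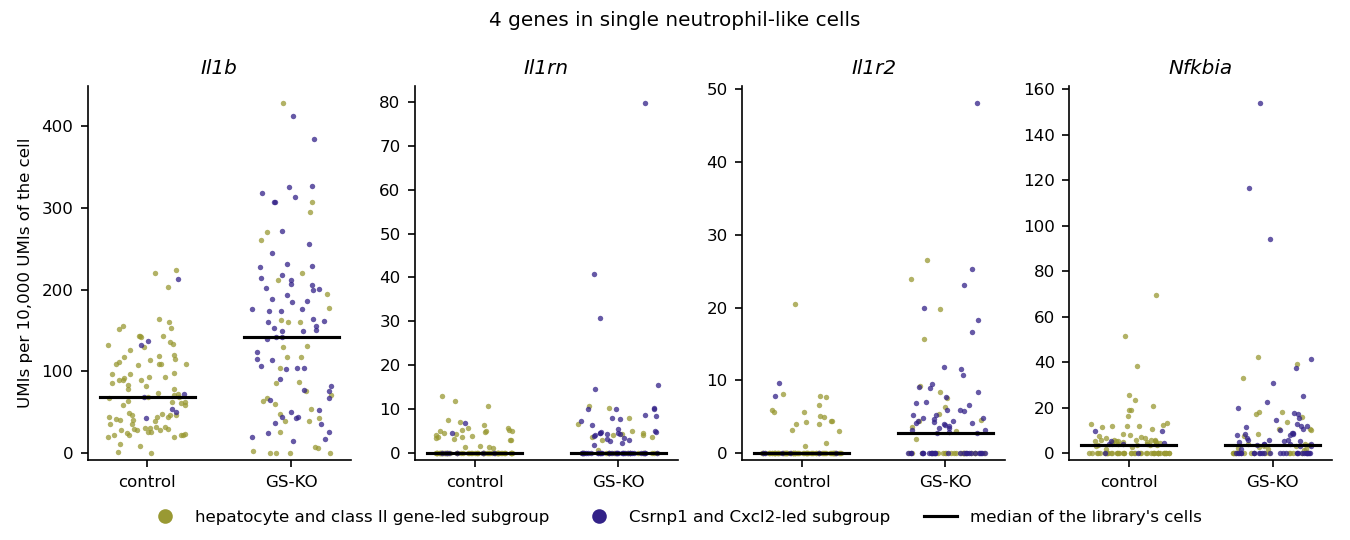
UMIs of 4 genes per 10,000 UMIs of the cell in each neutrophil-like cell, by library; colours mark the 2 subgroups and black lines the medians of the 99 control and 103 GS-KO cells. Il1b medians are 68.7 and 141.8 with wide overlap, and the highest cells stand at 224.8 and 428.2.

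The neutrophil-like cells divided into subgroups that the libraries filled unequally. One was led by genes of hepatocytes and antigen-presenting cells (Ttr, Apoa2, H2-Ab1; 91 control and 37 GS-KO cells) and the other by Csrnp1, Cxcl2 and Dusp5 (8 and 66 cells). Within the GS-KO library all 5 members with enough UMIs were higher in the Csrnp1-led subgroup, against 31.6% of all genes. Il1b was 15918 CPM (15343 to 16509) there and 8715 CPM (8212 to 9240) in the other subgroup, Il1rn 527.8 CPM (427.6 to 644.6) and 132.0 CPM (76.9 to 211.4), and Il1r2 571.8 CPM (467.2 to 692.9) and 217.5 CPM (144.5 to 314.3). Nlrp3 and Nfkbia were 2.35-fold (1.39 to 4.15) and 2.01-fold (1.54 to 2.63) as high there. The GS-KO cells richest in Il1rn, at 79.6, 40.7 and 30.7 per 10000 UMIs, were in this Csrnp1-led subgroup. In the control library the Csrnp1-led subgroup had 8 cells, and 1 of 5 members was higher and 1 lower, against 23.6% and 21.3%.

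Within the Ttr-led subgroup, the Il1b, Il1rn and Il1r2 ratios were nearer to 1 than in the whole class. Il1b was 7278 CPM (6940 to 7627) in the control and 8715 CPM (8212 to 9240) in the GS-KO library, a ratio of 1.20 (1.11 to 1.29). Il1r2 stood at a ratio of 1.86 (1.06 to 3.26), Il1rn stood at 0.811 (0.430 to 1.47) and Nlrp3 at 0.421 (0.241 to 0.699). Within the Csrnp1-led subgroup, with 8 control cells, the ratios were 1.64 (1.40 to 1.93) for Il1b, 3.01 (0.999 to 14.9; 3 control UMIs) for Il1rn, 2.45 (0.927 to 9.14; 4 control UMIs) for Il1r2 and 2.598 (1.30 to 6.09) for Nfkbia. The Nfkbia ratio leans on a few rich GS-KO cells. Per 10000 UMIs of the cell, its median was 4.24 in control and 4.13 in GS-KO cells of this subgroup. Its highest values were 9.77 and 153.7. Messages of immature granules, 12 genes, summed to 1666 CPM in control and 30238 CPM in GS-KO cells of the Ttr-led subgroup. These GS-KO cells held less Il1b, Il1rn and Il1r2 than the Csrnp1-led ones. Over the whole class the immature list summed to 1578 and 13373 CPM (5 of 7 measured genes higher), the mature neutrophil list to 19134 and 27700 CPM (4 of 11 higher) and the early response list to 28514 and 36942 CPM (6 of 21 higher, 1 lower). The abundant hepatocyte list, a measure of free hepatocyte RNA, stood at 5951 and 3149 CPM, with 15 of 16 genes lower. The part of maturity, of the early response and of free RNA in the interleukin-1 differences was not tested.

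**Figure D4:**
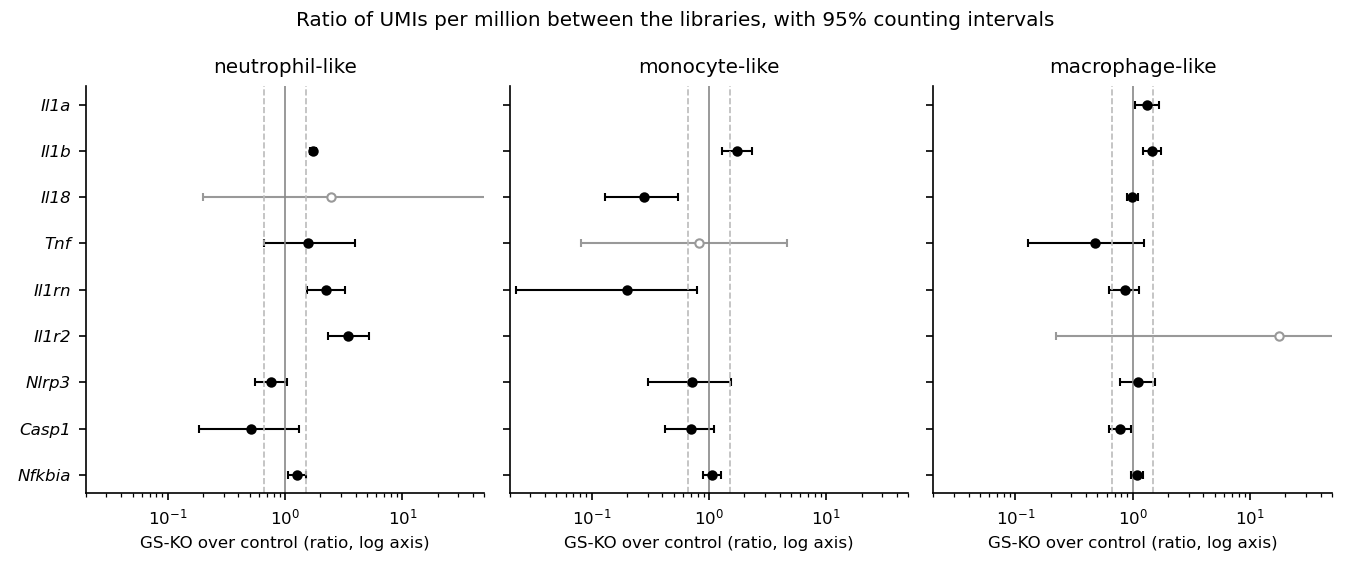
Ratio of GS-KO over control CPM for each gene (log axis) in neutrophil-like, monocyte-like and macrophage-like cells; bars are 95% counting intervals, dashed lines the 1.5-fold limits, and grey open points genes with under 20 UMIs. Il1b, Il1rn and Il1r2 lie above 1 in neutrophil-like cells, while in macrophage-like cells 7 of the 8 measured genes lie within the limits; genes with 0 UMIs in a library are not drawn.

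Monocyte-like cells held Il1b unevenly. One subgroup was led by Eno3, Ace and Cd36, genes of patrolling monocytes, and another by Vcan, Fn1 and F13a1, genes of classical monocytes. Il1b stood at 233.3 CPM (186.1 to 288.9; 47 cells) and 14.9 CPM (4.05 to 38.1; 34 cells) in the Ace-led and Vcan-led subgroups of the control library. Its GS-KO levels were 282.7 CPM (212.4 to 368.9; 28 cells) and 15.2 CPM (1.84 to 55.0; 17 cells). The ratios were 15.7 (5.91 to 58.9) and 18.6 (4.90 to 157). One cell held 56.0% of the control Il1b UMIs of the Ace-led subgroup. Without the richest cell of each subgroup the ratios were 13.6 and 24.7. Of the neutrophil messages, the Ace-led cells held 0 (control) and 4 (GS-KO) UMIs of S100a8 and S100a9, against 8 and 294 in the Vcan-led cells, which held less Il1b. Of the members measured, 1 of 5 was higher in the Ace-led subgroup of the control library and 3 of 3 in that of the GS-KO library (Il1b, Casp1, Nfkbia), against 13.7% and 21.7% of all genes.

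Between the libraries, 1 of 6 members was higher in GS-KO monocyte-like cells (Il1b, ratio 1.74, 1.29 to 2.35) and 2 were lower, against 12.0% and 17.3% of all genes. Without the richest cells the Il1b ratio was 2.35, 42.3% of the control UMIs being in 1 cell. The 14 neutrophil markers, messages of the cells richest in Il1b, summed to 146 CPM in control and 993 CPM in GS-KO monocyte-like cells, with 6 and 4 of them at 0, and their part in the Il1b difference was not tested. Il18 was 89.7 CPM (71.9 to 110.5) and 25.3 CPM (12.1 to 46.5), and Il1rn 25.5 CPM (25 UMIs) and 5.05 CPM (2 UMIs), a ratio of 0.198 (0.0228 to 0.796). Macrophage RNA moved with these values, as the C1q genes summed to 2183 CPM in control and 37.9 CPM in GS-KO monocyte-like cells. The control class also held 16 cells of a subgroup led by Cxcl9 and C1q genes, and the GS-KO class 0. Of the early response genes 14 of 24 were higher in GS-KO monocyte-like cells (9152 and 15354 CPM in sum), and their part was not tested. Without the subgroups led by macrophage, B and T cell genes, 0 of 5 members were higher and 1 was lower (Nlrp3, 23 and 7 UMIs), against 12.2% and 14.2%. Il1b then stood at a ratio of 1.24 (0.872 to 1.76) and Il18 at 0.751 (0.323 to 1.61).

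In macrophage-like cells few members passed the 1.5-fold limit. Of 8 members with enough UMIs 0 were higher and 1 lower in the GS-KO library, against 10.4% and 14.9% of all genes, and the median log2 ratio was 0.06 against -0.07. The 1 was Tnf, with a ratio of 0.477 (0.128 to 1.25), or 0.136 without the richest cells. Il1b lay just inside the limit, at a ratio of 1.47 (1.23 to 1.73), and just outside it at 1.51 (1.27 to 1.79) once the cluster of shallow cells was left out. Il1a was at 1.33 (1.04 to 1.68), Casp1 at 0.784 (0.624 to 0.975), Nlrp3 at 1.12 (0.780 to 1.56), Nfkbia at 1.09 (0.973 to 1.23) and Il1rn at 0.854 (0.625 to 1.14). Of the GS-KO Il1rn UMIs 43.8% were in 1 cell, and without the richest cells the Il1rn ratio was 0.513. Early response genes moved beside these values, with 22 of 27 higher in GS-KO macrophage-like cells and a summed level of 5119 and 10433 CPM; their part was not tested. The Cd209f-led cluster held more of the control cells of this class than any other cluster (537 of 1363), and a cluster of shallow cells more of the GS-KO cells (28 of 98).

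Macrophage groups differed from each other in Il18 and Il1rn. The Cd209f, Fcna and Cd163-led group (537 control and 26 GS-KO cells) was the highest of the 3 deep groups in Il18, at 413.9 CPM (400.7 to 427.4) and 361.3 CPM (307.1 to 422.2). The Mmp12, Cd207 and Trem2-led group (397 and 26 cells) held 199.7 CPM (190.3 to 209.5) and 298.5 CPM (251.2 to 352.0). Its GS-KO interval overlaps that of the Cd209f-led group. The Gpnmb and Ms4a7-led group (161 and 18 cells) held the least, 142.1 CPM (128.9 to 156.4) and 80.3 CPM (47.6 to 126.9). The Cd209f-led level was 2.91-fold (2.63 to 3.23) and 4.50-fold (2.76 to 7.79) the Gpnmb-led one. In that comparison 3 of 8 members were higher (Il18, Nlrp3, Casp1) and 1 lower (Il1rn) in the control library, against 19.9% and 8.0% of all genes. In the GS-KO library 3 of 6 were higher (Il18, Il1b, Nlrp3), against 25.7%.

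Il1rn followed a different order among these groups of the control library. In the control library it was 88.9 CPM (82.7 to 95.5) in the Mmp12-led, 32.7 CPM (26.6 to 39.9) in the Gpnmb-led and 14.3 CPM (12.0 to 17.0) in the Cd209f-led group, a Mmp12-led over Cd209f-led ratio of 6.21 (5.14 to 7.54). In the GS-KO library that ratio was 2.88 (1.32 to 6.94), but 21 of the 28 Mmp12-led UMIs were in 1 cell, and without the richest cells it was 0.900. There 1 of 7 members was higher and 1 lower (Nlrp3, 2.84-fold), against 11.7% and 19.4%. Il1b was 115.1 CPM in the Mmp12-led, 70.1 CPM in the Cd209f-led and 56.4 CPM in the Gpnmb-led control cells. Against the Cd209f-led group, 3 of 8 members were higher in the Mmp12-led control cells (Il1b, Tnf, Il1rn) and 1 was lower (Il18), against 7.49% and 13.8% of all genes.

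**Figure D5:**
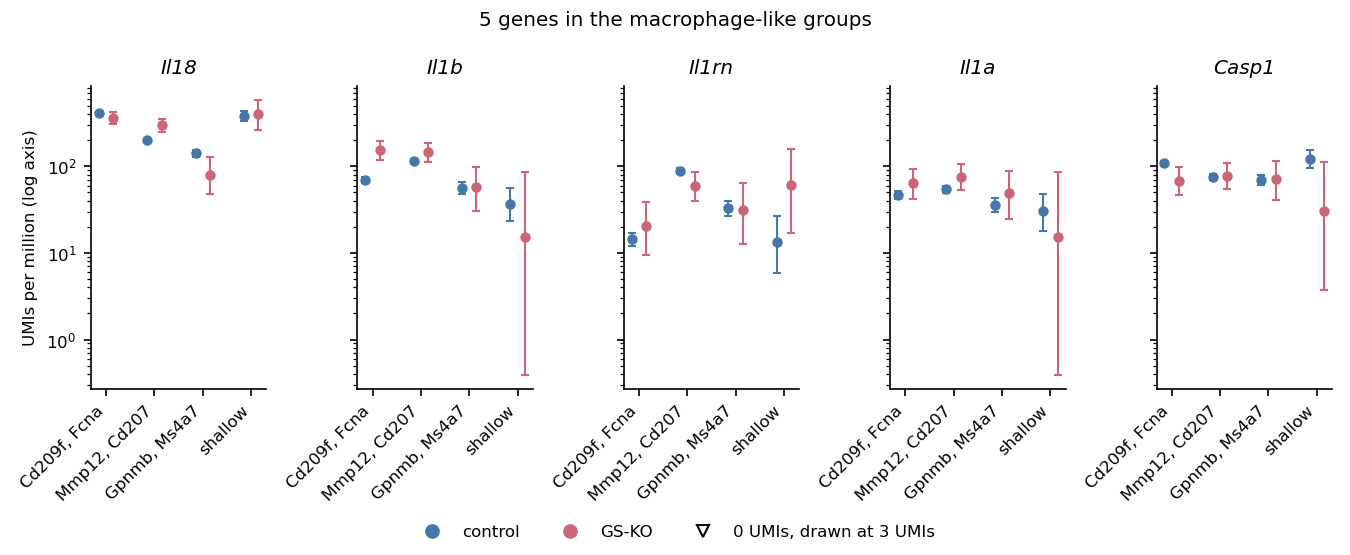
Level (CPM, log axis) of 5 genes in the 4 macrophage-like groups, named by their leading genes, with 95% Poisson intervals, in the control (blue) and GS-KO (red) library. Il18 is highest in the Cd209f-led of the 3 deep groups, and Il1rn in the Mmp12-led group of the control library, at 88.9 CPM. The GS-KO intervals of Il18 in the Cd209f-led and Mmp12-led groups overlap.

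Within single macrophage groups the libraries differed in a few members. In the Cd209f-led group Il1b had a ratio of 2.19 (1.67 to 2.81), 1 cell holding 38.8% of the UMIs of GS-KO, and 1.49 without the richest cells, and Casp1 had a ratio of 0.632 (0.424 to 0.908). Here 2 of 8 members were higher (Il1b and Tnf, the 3 Tnf UMIs of GS-KO being in 1 cell) and 1 was lower, against 13.4% and 18.9%. In the Mmp12-led group Il18 stood at 1.49 (1.25 to 1.78), and Tnf had 91 control UMIs (10.8 CPM) but 0 GS-KO UMIs, where 3 UMIs would be 6.35 CPM. Tnf was the 1 member of 8 counted as lower and 0 were higher, against 19.0% and 11.4%. In the Gpnmb-led group Il18 was lower (1.77-fold, 1.11 to 3.02), as 1 of 7 members, against 20.6%, 1 cell holding 55.6% of its 18 GS-KO UMIs.

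Endothelial-like cells of the GS-KO library held less Il18 (98.3 and 12.7 CPM) and Il1b (22.6 and 4.75 CPM). They make 2 of 5 members lower and 0 higher, against 16.2% and 15.4%. Their summed C1q level, a macrophage message, was 5494 and 304 CPM, and its part was not tested. The endothelial-like level of Il1a was 1.49-fold (1.14 to 1.93) and 0.924-fold (0.606 to 1.39) that of macrophage-like cells. No member was higher there than in macrophage-like cells, and 6 of 8 and 5 of 7 were lower, against 16.2% and 19.9% (34.1% and 38.5% higher). B-like cells held Nfkbia (358.1 and 343.9 CPM) and Casp1 (49.2 and 45.5 CPM) in both libraries. Of 3 members measured in B-like cells 1 was lower (Il18, 38 and 7 UMIs) and 0 higher, against 26.2% and 6.57%. The 11 Kupffer markers summed to 199.5 and 19.8 CPM in B-like cells and the 15 macrophage markers to 2018 and 994 CPM, and their part was not tested. Of 3 measured in T-like cells 1 was lower (Casp1, 51 and 8 UMIs) and 0 higher, against 28.5% and 7.23%. There the same lists summed to 83.3 and 20.7 CPM and to 711 and 235 CPM, and their part was not tested either. Nlrp3 and Il1rn had 0 UMIs in B-like and T-like cells of both libraries, where 3 UMIs would be 1.56 to 5.93 CPM.

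The wider pathway was read from 62 genes of interleukin-1, TNF, inflammasome and NF-κB signalling, all in the files. In neutrophil-like cells 5 of 24 measured genes were higher and 3 lower in the GS-KO library, against 13.3% and 20.9% of all genes, with a median log2 ratio of 0.03. Nfkbid, a nuclear IκB protein, was 128.6 and 309.1 CPM (ratio 2.40, 1.60 to 3.69). Il1rap, the accessory chain of the interleukin-1 receptor, was 74.0 and 157.8 CPM (2.13, 1.23 to 3.83), and Il1f9, the interleukin-36γ gene, 148.1 and 247.9 CPM (1.67, 1.12 to 2.54). Adam17, the protease that sheds TNF and the decoy receptor, was 109.1 and 51.5 CPM (0.472, 0.239 to 0.903), and Ikbkb, an IκB kinase, 66.2 and 29.0 CPM (0.437, 0.172 to 1.04). The other abundant genes, Txnip, Tnfrsf1a and Nfkbiz, stood at 0.852, 1.09 and 0.763.

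In monocyte-like cells 5 of 43 pathway genes were higher and 7 lower, near the 12.0% and 17.3% of all genes, so the counts set the pathway apart from other genes in neither direction. Tnfrsf1b, a TNF receptor, was 225.2 and 391.7 CPM (1.74, 1.41 to 2.15) and Nfkbiz, another nuclear IκB protein, 101.9 and 169.3 CPM (1.66, 1.20 to 2.29). Il18bp, which binds and blocks interleukin-18, was 52.0 and 7.58 CPM (0.146, 0.0291 to 0.451) and Casp8, the initiator of death-receptor apoptosis, 88.7 and 35.4 CPM (0.399, 0.210 to 0.706). Txnip, a thioredoxin-binding protein, Pycard, the inflammasome adaptor ASC, Ikbkb and Nfkb1, an NF-κB subunit, stood at 1.20, 0.791, 1.02 and 1.18. The median log2 ratio was -0.07. In macrophage-like cells 0 of 51 were higher, against 10.4% of all genes, and 8 were lower, near the 14.9% of all genes, with a median log2 ratio of -0.23. Il18bp was the most abundant, at 568.9 and 503.0 CPM, and Pycard was 198.4 and 141.0 CPM (0.711, 0.606 to 0.829). Adam17 was 129.1 and 73.4 CPM (0.569, 0.454 to 0.703) and Naip2, a sensor of bacterial proteins, 42.3 and 20.02 CPM (0.473, 0.301 to 0.709). Txnip and Tnfrsf1a stood at 0.822 and 0.919. The pathway medians compare with -0.09, -0.02 and -0.07 for all genes in the 3 classes.

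Across 14 sums of a class in a library with at least 30 cells, the genes most like each member were named by Pearson's r of log2(CPM + 10) among 11984 genes. The sums of 1 library share its depth and free RNA, so r is a description. For Il1b, Il1r2 and Nlrp3 the neutrophil-like sums stood far above the others, so r leans on those sums. Il1b was most like Cd33 (r = 0.99), 1600010M07Rik and Csf3r, the G-CSF receptor of neutrophils, and Nlrp3 like 1600010M07Rik, Il1b (0.98) and Cd33. Il1r2 was most like Cstdc5, Olfm4 and Il1f9 (all 0.99 or more), and Il1rn like Cd300lf, Siglece and Hcar2. Il18 was most like Pla2g15 (0.98), Spic, a transcription factor of red pulp and liver macrophages, and Adap2. Nfkbia was most like Mcl1 (0.94), Zfp36 and Gripap1, Casp1 like Dok1 (0.93), Stx16 and Scamp2, Il1a like Ppp1r9a (0.97), Epor and D5Ertd605e, and Tnf like Cep19 (0.94), 4930581F22Rik and Hdac4.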

How the data were processed

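The deposited matrices hold UMI counts per gene and barcode, made by the authors with Cell Ranger on mm10 per the submitters' processing notes; per the file headers the software version was 3.1.0. The labels name a 3PrimeV2 library, called single-cell and once single-nucleus. A barcode was kept from 500 UMIs and 200 genes upward, if no more than 20% of its UMIs were mitochondrial. Scrublet, run per library at an expected rate of 5%, removed 24 and 7 barcodes. Both libraries were clustered together in scanpy 1.11.5 (2000 variable genes, the 9 members left out, 30 components, 15 neighbours, Leiden resolution 1, seed 1). A cluster took the name of the class with most markers at least 2-fold higher (prior 10 CPM) in at least 20% of its cells, with at least 3 such markers, from 19 marker lists. Kupffer and macrophage markers were pooled into 1 class, and classes were split into subgroups at resolution 0.5, both chosen after the data had been seen.

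Counts were summed per class and library and given as CPM with exact Poisson intervals. Ratios carry exact conditional binomial intervals, log2 ratios a prior of 0.5 counts. UMIs collapse PCR copies, and intervals and limits (3 counts) cover counting error only. A gene was measured with at least 20 UMIs over both sides and counted as higher or lower from 1.5-fold. The named pathway genes are, per class, the 5 with most UMIs and up to 2 higher and 2 lower by the interval bound nearest 1. The pathway list has 64 symbols for 62 genes, as Il36a and Il36g are newer names of Il1f6 and Il1f9, under which the files list them. The members and lists were chosen with earlier results of these data known. The counting of higher and lower genes was tested on simulated data. Sequences are from RefSeq (GRCm38.p6), gene coordinates from GENCODE (GRCm38). Alternatives were the mean over cells, thinning, another total, other limits, folds and resolutions, doublets kept, and leaving out the richest cell, the shallow cluster or subgroups led by other cell types.

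Beside the lists given with the results, 12 housekeeping genes summed to 30977 and 33733 CPM in neutrophil-like cells (1 higher, 2 lower), to 37830 and 40138 CPM in monocyte-like cells (1 higher) and to 32269 and 35506 CPM in macrophage-like cells (1 higher). Neutrophil markers summed to 146 and 993 CPM in monocyte-like cells and to 57.4 and 62.6 CPM in macrophage-like cells. Kupffer markers summed to 14717 and 14327 CPM, and macrophage markers to 65194 and 71625 CPM, in macrophage-like cells.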

Additional observations from a re-analysis of the deposited data

Results flagged for a closer look

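Barcodes over the mitochondrial limit, which entered no comparison, also carried the messages. In the GS-KO library 694 such barcodes held Il1b at 1155 CPM of non-mitochondrial UMIs (485 UMIs), against 147 in 1799 control barcodes (492 UMIs). Il1rn stood there at 52.4 CPM, against 9.88. These left-out barcodes were not sorted into cell classes. All kept GS-KO cells together held 4254 Il1b UMIs among 4494195 UMIs, and all kept control cells 3963 among 53867823. Neutrophil-like cells, the richest in Il1b, were 15.7% of kept GS-KO cells but 3.05% of kept control cells. The part of the cell mix in the differences between left-out barcodes was not tested.

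Some ratios of GS-KO over control lay on opposite sides of 1 in different cells. The differences between the cells were not tested, and each library is 1 mouse. For Il1b the ratio was 1.74 in neutrophil-like cells, 1.74 in monocyte-like, 1.47 in macrophage-like and 2.19 in the Cd209f-led macrophage group, but 0.210 in endothelial-like cells (20 and 3 UMIs). For Il18 it was 1.49 in the Mmp12-led group, but 0.565 in the Gpnmb-led group, 0.282 in monocyte-like and 0.129 in endothelial-like cells. In the Gpnmb-led group 1 cell held most of the GS-KO Il18 UMIs. The C1q messages of macrophages were also lower in GS-KO monocyte-like and endothelial-like cells. Without the subgroups led by other cell types, the interval of the monocyte-like Il18 ratio included 1. For Il1rn it was 2.22 in neutrophil-like cells, but 0.198 in monocyte-like cells (25 and 2 UMIs) and 0.667 in the Mmp12-led group. In the Mmp12-led group 1 cell held most of the GS-KO Il1rn UMIs.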

How the results depend on the processing

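No paired analysis was possible because each group is 1 mouse. Of the differences described in the report, 2 turned without the richest cells. Il1rn in the Mmp12-led over the Cd209f-led group of the GS-KO library went from 2.88 to 0.900, and Tnf in the Cd209f-led group, GS-KO over control, from 1.54 to 0 GS-KO UMIs. Of the counts under the alternatives, 159 stayed within 1.5 times the reported count and 47 did not; of the single-gene values, 228 moved less than the counting error and 19 more.

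In neutrophil-like cells the 4 members higher became 2 at a fold of 2, and the 1 lower (Casp1) became 0 after thinning, without the richest cell, at 50 UMIs or at a fold of 2. The 5 pathway genes higher became 8 at 1 UMI and 2 at a fold of 2, the 3 lower 15 at 1 UMI and 0 after thinning or at 50 UMIs.

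In monocyte-like cells the 1 member higher became 0 after thinning, with doublets kept, at a fold of 2, and without the subgroups led by other cell types (chosen after seeing the data). The 2 lower became 0 after thinning, and 1 at 50 UMIs or without those subgroups. The 5 pathway genes higher became 2 after thinning, 8 at 1 UMI, 3 at 50 UMIs and 0 at a fold of 2, the 7 lower 0 after thinning and 4 at a mitochondrial limit of 10%.

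In macrophage-like cells the 0 members higher became 2 after thinning, and 1 with the mean over cells, with doublets kept, at resolution 2, with the members in the clustering, at 1 UMI, or without the shallow cluster (chosen after seeing the data). The 1 lower became 0 after thinning and 2 without the richest cell. The 0 pathway genes higher became 2 with the mean over cells or after thinning, and 1 at a mitochondrial limit of 10%, at resolution 2 or at 1 UMI. The 8 lower became 17 with the mean over cells, 15 without the richest cell and 2 at a fold of 2.

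Against macrophage-like cells, the 1 member higher in control monocyte-like cells became 2 with doublets kept or without the subgroups led by other cell types, and 0 at a fold of 2. The 2 of the GS-KO library became 1 after thinning, without the richest cell or without those subgroups, and 0 at a fold of 2. The cause of these changes was not tested. On the log2 scale, Il1rn in macrophage-like cells stood at -0.23, but at 1.21 with the mean over cells, and Nlrp3 at 0.16 but at -0.45.

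The GS-KO library kept 655 cells, so single cells weigh on its scarce genes, and with 1 mouse per genotype no difference between mice can be told apart from genotype.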

Other observations

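An unnamed group led by histone and cell division genes (68 control and 9 GS-KO cells) entered no named class. Its Il18 level was 351.1 CPM (629 UMIs) for control and 14.8 CPM (4 UMIs) for GS-KO cells, and its Casp1 level 88.8 CPM (159 UMIs) and 3.699 CPM (1 UMI). Il1a, Il1rn and Nlrp3 had 65, 57 and 44 control UMIs and 0 GS-KO UMIs. The C1q genes summed to 16616 and 289 CPM there, and S100a8 with S100a9 to 5.02 and 71476 CPM, so the 2 libraries filled this group with different cells and its values were not compared.

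Il1b was found in nearly all neutrophil-like cells, so pairs that include it give little beyond the detection of the second gene. Il1b with Il1rn was found in 29 of 99 control and 43 of 103 GS-KO cells, Il1b with Il1r2 in 21 and 54, and Il1rn with Il1r2 in 10 and 25, without thinning.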
